A study of Mus musculus with 2 samples.

Results

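The 34 genes described here encode the enzymes that oxidise fatty acids and the proteins that control entry of fatty acids into mitochondria. They were taken by symbol from the annotated genes of the deposited tables, with reads of every transcript class. Annotated genes with at least 1 read numbered 14534, and 33 of the 34 were among them in both libraries. The remaining gene, Acad10, had 0 reads in each. The members held 447 transcript models in replicate 1 and 535 in replicate 2.

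The RNA came from heart samples labelled B6CASTF1/J, male, at 2 months of age. By its name the strain is a first-generation hybrid of a B6 and a CAST parent. The 2 libraries form a single group, with no treatment, no second genotype and no other tissue. Each was made from 2 µg of RNA and read by long-read RNA sequencing, in which a read is meant to span a whole transcript. The labels number the libraries as biological replicates 1 and 2 and list a biosample and an animal number for each. They also give 1 donor number for both, and a further field names the same animal for each. With labels that differ on this, the spread between the libraries may be technical. Nuclear annotated genes held 430251 reads in replicate 1 and 629896 in replicate 2. All 6 cardiomyocyte markers were read, and 4 of 5 hepatocyte markers had 0 reads in both libraries, the fifth having 1 read in replicate 1. Of 5 skeletal muscle markers 3 were read, and Acta1 held 180 of their 185 reads in replicate 1 and 203 of 209 in replicate 2. The 5 adipocyte markers summed to 79.0 and 116 CPM (counts per 1000000 reads of annotated nuclear genes), of which Cidea held 67.4 and 82.6. The 5 erythroid markers summed to 13799 CPM in replicate 1 against 3663 in replicate 2. In whole tissue, fewer cells of a type and less RNA per cell cannot be told apart.

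Long-chain fatty acids enter mitochondria bound to carnitine, and malonyl-CoA holds that step in check. Inside, each turn of beta-oxidation is a dehydrogenation, a hydration, a further dehydrogenation and a thiolytic cleavage that releases acetyl-CoA. Electrons from the first dehydrogenation reach ubiquinone through the electron transfer flavoprotein. The adult heart is known to draw most of its ATP from this route.

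Levels are in CPM, given as mean ± SD with n = 2 libraries. Each long read was counted once whatever its length, so CPM values were set side by side across genes without division by length. Copies of 1 molecule cannot be told apart, and the part of transcript length in these levels was not tested. Coordinates are on mm10 (GRCm38). A count of 0 allows 3 reads, which is 6.97 CPM in replicate 1 and 4.76 in replicate 2. The members held 10680 reads in replicate 1 and 17068 in replicate 2. That is 2.48% of nuclear reads (exact Clopper-Pearson 95% interval 2.44 to 2.53) and 2.71% (2.67 to 2.75), or 25960 ± 1608 CPM. The trifunctional protein and the other 3-hydroxyacyl-CoA dehydrogenases took 28.6% ± 0.519 of the members' CPM, and the acyl-CoA dehydrogenases 24.0% ± 0.243. Hydratases, isomerases and the reductase took 13.2% ± 0.421, electron transfer 12.2% ± 0.0135 and the carnitine shuttle 8.76% ± 0.952. The mitochondrial thiolase took 6.41% ± 0.491, thioesterases with Ucp3 3.54% ± 0.165, malonyl-CoA control 1.82% ± 0.00677 and the peroxisomal enzymes 1.41% ± 0.0758. The order of the 9 roles was the same in both libraries.

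**Figure D1:**
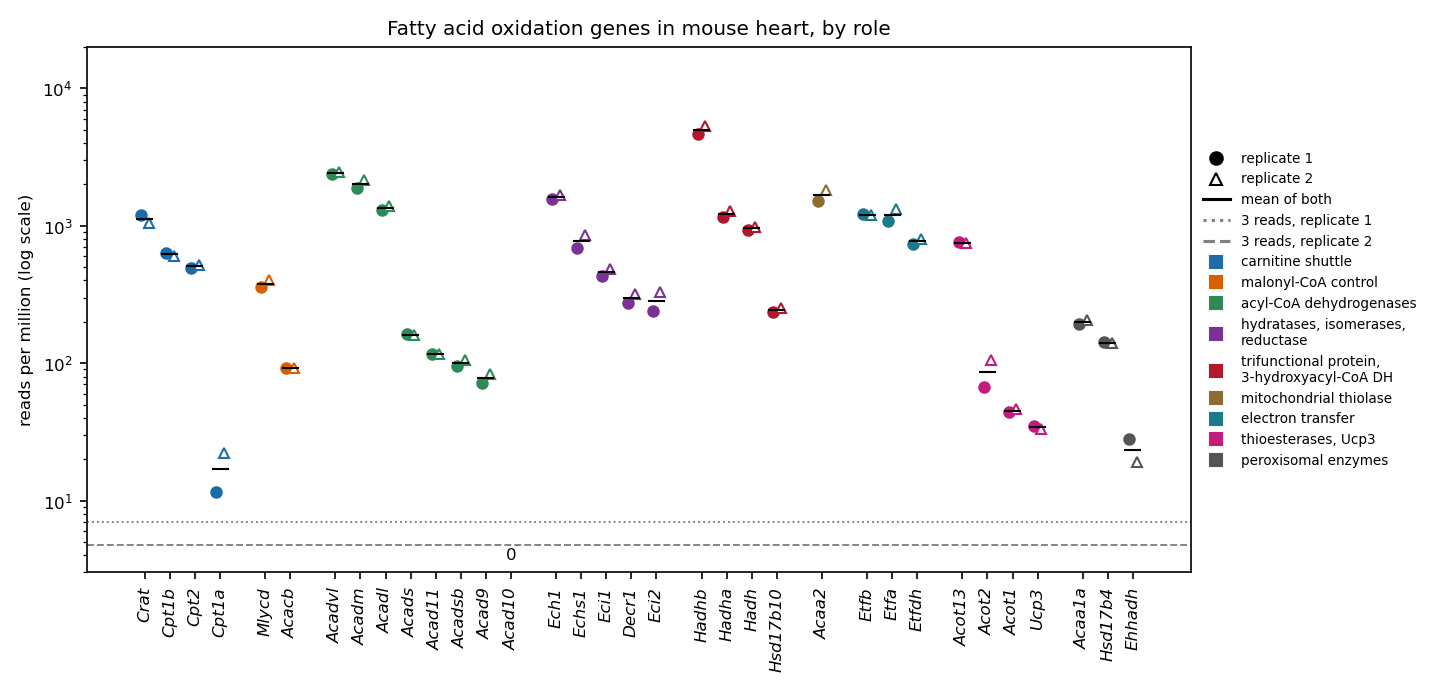
Level of each gene in CPM on a log axis, with replicate 1 as filled circles, replicate 2 as open triangles and the mean as a bar. Hadhb is highest at 5013 CPM, Acad10 has no read, and the grey lines mark what 3 reads are worth in each library.

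In the carnitine shuttle, the muscle form of carnitine palmitoyltransferase 1 was read far more often than the liver form. Cpt1b (chr15:89416405-89425863) had 274 reads in replicate 1 and 381 in replicate 2, a level of 621 ± 22.6 CPM. Cpt1a had 5 and 14 reads, 16.9 ± 7.50 CPM, of which 0 and 10 were counted on an annotated transcript. Some of the others ran past the end of the gene at 3385733. An unspliced model with 2 reads in replicate 1 reached 3387996, and 1 read in each library used a splice site at 3406918. Cpt1b thus held 98.2% and 96.5% of the reads of the pair, and 100% and 96.8% of those matching annotated transcripts. Cpt2, which returns the acyl group to coenzyme A inside the mitochondrion, had 213 and 326 reads (506 ± 15.9 CPM). Crat, which moves acetyl groups between coenzyme A and carnitine, was the most read gene of the shuttle. It had 516 and 660 reads, 1199 CPM in replicate 1 and 1048 in replicate 2 (1124 ± 107). Crat was higher in replicate 1 while most members were lower there, but its adjusted p was 0.544 by the exact test described below.

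Crat also carried the most read model outside the annotation. The deposited tables class such models as NIC, a new combination of annotated splice sites, or NNC, with at least 1 site the annotation lacks. Crat (ENSMUSG00000026853.15, chr2:30400471-30415813, minus strand) had 3 of the 10 most read ones. A NIC model with 13 and 30 reads left its first exon at 30415195, 117 bases further along the gene than the site of Crat-201 at 30415312. The annotated Crat-213 uses the same intron, and its coding part starts at 30415338, as does that of Crat-201. In replicate 2 the model began at 30415308, downstream of the first exon of Crat-201 (30415312-30415813). The model had 2640 bases in replicate 1 and 2615 in replicate 2. Whether it has a first exon separate from that of Crat-201 was not tested. The model made up 2.52% and 4.55% of the reads of Crat. The other NIC model had 12 and 15 reads, 2.30% ± 0.0374 of the gene. It began an exon 15 bases early, at 30403641 in place of 30403626, a site that the annotated Crat-211 uses. The NNC model had 13 and 8 reads and ended the first exon 3 bases early, at 30415315. The changes of 15 and 3 bases fall within the coding part of Crat-201 and are multiples of 3. The junctions are shown from GENCODE M21 transcripts (GRCm38) because they are the places where these models and Crat-201 part. The first joins chr2:30404528-30404542 to chr2:30403612-30403641 and the second chr2:30415312-30415326 to chr2:30413232-30413246, read on the minus strand. Capitals mark the bases the NIC model adds in the first line and the bases the NNC model lacks in the second.
Crat NIC junction: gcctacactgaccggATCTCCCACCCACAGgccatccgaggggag
Crat NNC junction: gctgccagaaccGTGgtaaaacccctgggc

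The pair of genes that sets malonyl-CoA was read at unequal levels. Mlycd, malonyl-CoA decarboxylase, removes malonyl-CoA and had 155 and 252 reads, 380 ± 28.2 CPM. Acacb, the acetyl-CoA carboxylase of the mitochondrial surface, makes malonyl-CoA and had 40 and 58 reads, 92.5 ± 0.630 CPM. Its cytosolic relative Acaca had 2 and 3 reads, at or below the 3-read floor. Acacb also had the lowest share of reads on annotated transcripts among members with at least 20 reads in each library. Annotated transcripts held 7.50% and 5.17% of its reads, and its leading transcript has 53 exons and 8788 bases. Of its reads that followed this transcript, 6.06% and 6.25% held the first exon.

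Among the acyl-CoA dehydrogenases, which catalyse the first step for fatty acids of different chain length, the very-long-, medium- and long-chain enzymes stood far above the rest. Acadvl (ENSMUSG00000018574.14, chr11:70010183-70015411) had 1023 and 1548 reads, 2418 ± 56.5 CPM. Acadm (ENSMUSG00000062908.12, chr3:153922357-153944632) had 808 and 1354 reads, 2014 ± 192 CPM. Acadl had 558 and 871 reads, 1340 ± 60.7 CPM. The values of these 3 genes did not overlap between genes in the 2 libraries. The short-chain enzyme Acads followed at 162 ± 1.66 CPM, with 70 and 101 reads. Acadl was 7.97 and 8.62 times as often read as Acads. Acad11 (116 ± 0.226 CPM), Acadsb for short branched chains (100.04 ± 6.71 CPM) and Acad9 (78.1 ± 8.55 CPM), also known as an assembly factor of respiratory complex I, lay lower still. Acad10 had no read, which allows up to 3 reads in each library.

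Acadm and Acadvl carried 3 of the 10 most read outside models, each with a splice site 2 or 3 bases from an annotated one. In Acadm a donor at 153937705 stood in for 153937703, with 5 and 8 reads. In Acadvl an acceptor at 70010598 replaced 70010600 with 3 and 8 reads, and an acceptor at 70011075 replaced 70011078 with 5 and 6. A further NNC model, in Acadl, moved a donor by 2 bases to 66848398, with 3 and 8 reads. These were 0.405% to 0.728% of the reads of their genes as means of the libraries. The junctions of Acadm-201 and Acadvl-202 are given because they show how few bases separate the models, with capitals for the bases the NNC models lack. All are coding and read on the minus strand of GRCm38, from GENCODE M21 transcripts. The upstream exons end at 153937703 in Acadm and at 70010698 and 70011168 in Acadvl.
Acadm junction: cagccaatgatgtGTgcttactgtgtgaca
Acadvl first junction: ggtggttctgtccagAGcctcaaggtccct
Acadvl second junction: caaacagctgagacgGAGgacaggaatcgg

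The enzymes that hydrate and reposition double bonds were led by Ech1, a dienoyl-CoA isomerase, with 670 and 1048 reads (1611 ± 75.3 CPM). Echs1, the short-chain enoyl-CoA hydratase, had 298 and 539 reads, 693 CPM in replicate 1 and 856 in replicate 2. Eci1 had 459 ± 37.8 CPM, Decr1, the dienoyl-CoA reductase, 296 ± 30.6 CPM and Eci2 283 ± 62.0 CPM. Eci1 and Eci2 are enoyl-CoA isomerases. Eci2 was 239 CPM in replicate 1 and 327 in replicate 2, the widest ratio among the 5, with an adjusted p of 0.383 by the exact test.

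Eci2 (ENSMUSG00000021417.15, chr13:34977748-35027096, minus strand) was also 1 of 2 members with more than a single common annotated transcript. Of its known reads, Eci2-211 held 40 of 74 in replicate 1 and 94 of 142 in replicate 2. Eci2-201 held 25 and 41, and Eci2-213 held 9 and 7. The first exon of Eci2-201, 34993830-34994281, spans that of Eci2-211, 34994014-34994144, and differs from it at both ends. The coding part of Eci2-211 starts in the first exon at 34994057, whereas that of the other transcripts starts in the second exon at 34993175. The share of Eci2-211 was 54.1% and 66.2%, a difference with p = 0.104 by Fisher's exact test before adjustment. The junction of the first 2 exons of Eci2-211, chr13:34994014-34994028 to chr13:34993216-34993230 on the minus strand of GRCm38, is shown from its GENCODE M21 transcript with the 10 bases that Eci2-213 skips in capitals, as these bases separate the transcripts.
Eci2-211 junction: atgctggtgtccgagTGTCCTGCAGgtctt
A pair of NIC models gave Eci2 a second exon 98 bases longer, which begins at 34993328 in place of 34993230. The model joined to the first exon of Eci2-211 had 14 and 25 reads, 12.9% ± 1.03 of the gene. The model joined to that of Eci2-201 had 6 and 10 reads, 5.34% ± 0.687. NIC models together held 20.9% of the reads of Eci2, more than in any other member with at least 20 reads in each library.

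Hadhb, the beta subunit of the mitochondrial trifunctional protein, was the most read member and rank 18 among all annotated genes. It had 2017 reads in replicate 1 and 3362 in replicate 2, 4688 and 5337 CPM. Hadha, the alpha subunit, had 498 and 810 reads, 1157 and 1286 CPM. The subunits sit in 1 complex, but Hadhb was read 4.05 and 4.15 times as often as Hadha. Over known transcripts alone the ratio was 4.42 and 4.76. The leading transcript of Hadha is annotated at 4017 bases and that of Hadhb at 2033. A 20-exon NNC model of Hadha, with 4 reads in each library, had 2707 bases. It ended at 30119426, short of the annotated end at 30118304. Of the reads following the leading transcripts, 87.0% ± 2.87 in Hadha and 94.1% ± 1.37 in Hadhb held the first exon. The Hadhb value leaves out reads of its second transcript, Hadhb-203 (796 and 1300), and of a 16-exon shortened model (24 and 48). The genes were thus not counted alike. The part of these differences in the ratio was not tested. Hadh, the medium- and short-chain 3-hydroxyacyl-CoA dehydrogenase, had 402 and 618 reads (958 ± 33.1 CPM), and Hsd17b10, which also acts on branched substrates, 102 and 160 (246 ± 12.0 CPM).

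Hadha and Hadhb lie head to head on chromosome 5. Hadha-205 starts at 30155162 on the minus strand and Hadhb-201 at 30155248 on the plus strand, which leaves 85 bases between the starts. No annotated transcript of either gene has an exon there. This interval is printed because it is the only DNA between genes read at a 4-fold different level. It is chr5:30155163-30155247, plus strand, from RefSeq promoter windows on GRCm38.p6, with GC-box letters (GGGCGG) in capitals. Its GC content was 69.4%.
Hadha-Hadhb interval: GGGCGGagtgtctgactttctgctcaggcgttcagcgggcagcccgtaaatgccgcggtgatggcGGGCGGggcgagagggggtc

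Hadhb itself began from a first exon with more than 1 end. Hadhb-201, whose first exon ends at 30155339, held 1046 of 1870 known reads in replicate 1 and 1778 of 3149 in replicate 2. Hadhb-203, whose first exon ends 43 bases further at 30155382, held 796 and 1300. The shares of Hadhb-201 were 55.9% and 56.5%, and those of Hadhb-203 42.6% and 41.3%. Hadhb-202, ending 47 bases further than Hadhb-201, had 27 and 69 reads. All 3 share the coding start at 30163677 in the second exon, so these ends change the 5′ untranslated part alone. An NNC model of Hadhb with 3 and 8 reads tied with the last of the 10 most read outside models. Its first exon ended at 30155137, 202 bases before that of Hadhb-201 and within the first exon of Hadha-205 on the other strand.

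The mitochondrial thiolase Acaa2, which cleaves off acetyl-CoA, had 648 and 1154 reads, 1506 CPM in replicate 1 and 1832 in replicate 2. A NIC model that kept 1 intron of Acaa2 had 6 and 5 reads. Electron transfer was read at a like level for both subunits of the flavoprotein. Etfa had 464 and 836 reads (1203 ± 176 CPM) and Etfb 525 and 751 (1206 ± 19.8 CPM). Their ratio, Etfa over Etfb, was 0.884 in replicate 1 and 1.11 in replicate 2, so neither was the higher in both. Etfdh, which passes the electrons to ubiquinone, had 318 and 505 reads, 770 ± 44.3 CPM.

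Thioesterases release free fatty acids from coenzyme A. Acot13 was the highest at 753 ± 12.6 CPM, with 328 and 469 reads. Acot2, of the mitochondrial matrix, had 29 and 66 reads (86.1 ± 26.4 CPM) and its cytosolic copy Acot1 19 and 29 (45.1 ± 1.33 CPM). Acot2 held 60.4% and 69.5% of the reads of the pair. The copies are near identical, so that split is uncertain. Ucp3, a mitochondrial carrier linked to fatty acid use in muscle, had 15 and 21 reads, 34.1 ± 1.08 CPM. Peroxisomal enzymes shorten fatty acids that mitochondria do not take. The thiolase gene Acaa1a had 83 and 131 reads (200.4 ± 10.6 CPM), the multifunctional enzyme gene Hsd17b4 61 and 88 (141 ± 1.47 CPM) and the bifunctional enzyme gene Ehhadh 12 and 12 (23.5 ± 6.25 CPM). Acaa1a has a close copy in Acaa1b, which had 0 and 2 reads, and the split between copies is uncertain.

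Genes that bring fatty acids into the cell and activate them summed to 17412 ± 304 CPM over 12 genes. Of these 11 were read, 9 with at least 10 reads in both libraries together. The highest 3 were Fabp3, a fatty acid binding protein, with 3707 and 5597 reads, Lpl, lipoprotein lipase, with 2932 and 4403, and Cd36, a fatty acid receptor, with 306 and 486. Of 14 other peroxisomal genes 13 were read, 10 with at least 10 summed reads, and their sum was 1121 ± 71.7 CPM. Among them were Scp2 (506 ± 37.3 CPM), a lipid carrier, and Abcd3 (153 ± 3.47), a fatty acyl transporter. All 16 regulators and target genes had at least 1 read, but only 11 had at least 10 reads in both libraries together. Esrra, a nuclear receptor of energy metabolism, was highest with 330 and 484 reads (768 ± 0.981 CPM), then Pdk4 (280 ± 83.9), a kinase that shuts off pyruvate use, and Klf15 (216 ± 6.83). Ppara, the receptor best known for switching on this pathway, had 3 and 2 reads, at or below the 3-read floor, and its coactivator Ppargc1a 20 and 20 (39.1 ± 10.4 CPM).

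To compare the 2 libraries, reads of each gene were put to an exact two-sided binomial test, Benjamini-Hochberg adjusted over 8098 genes with at least 10 summed reads. This test covers counting error only and compares these libraries. Log2 ratios are replicate 1 over replicate 2. Of the 33 members tested, 3 passed at an adjusted p under 0.05, where 0.692% of all genes tested passed, and all 3 were lower in replicate 1, where the share of all genes was 0.346%. Hadhb, at 4688 against 5337 CPM, had a log2 ratio of -0.19 (adjusted p = 0.00117). Acaa2, at 1506 against 1832, had -0.28 (adjusted p = 0.0121). Etfa, at 1078 against 1327, had -0.30 (adjusted p = 0.0488). No member differed by at least 2-fold and passed, where 0.321% of all genes did so by this exact test. At an unadjusted p under 0.05 there were 8 members of 33, where 7.15% of all genes tested were. With a minimum of 50 summed reads, 3 of 29 members and 53 of 3316 genes passed at an adjusted p under 0.05.

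In all, 23 of 33 members were lower in replicate 1, against 49.0% of all genes tested. The median log2 ratio was -0.097 over the members and 0.010 over all genes. Among genes with at least 100 reads, 19 of 26 members and 985 of 1757 genes were lower in replicate 1. The medians there were -0.101 over the members and -0.034 over the genes. These counts are descriptions, since reads of all genes in a library share its total. The erythroid markers moved the other way, higher in replicate 1 in 5 of 5. Among the cardiomyocyte markers, which summed to 49518 CPM in replicate 1 and 41442 in replicate 2, 2 of 6 passed the exact test. The cardiac myosin heavy chain Myh6 was higher in replicate 1, at 36490 against 27652 CPM (adjusted p = 1.31e-135), and Pln lower, at 6559 against 7258 (adjusted p = 0.00560). The part of Myh6 in the members' ratios was not tested. With the 5 erythroid genes left out of the total, an alternative chosen after seeing the data, Hadhb had an adjusted p of 0.00533 and Acaa2 0.0271, while Etfa no longer passed (0.0850). Etfa also did not pass with known transcripts alone (0.0719) or with no read minimum (0.0876), and Acaa2 not with known transcripts alone (0.0642). With spike-in reads as the scale, every log2 ratio shifted by -0.267, which moves all genes towards lower in replicate 1. On that scale 13 members passed, all lower in replicate 1, where 4.49% of all genes passed and 4.27% did so lower in replicate 1.

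Of the 42 other pathway genes, 30 were tested and Pdk4 alone passed. It was higher in replicate 1, with 146 and 139 reads, 339 against 221 CPM, a log2 ratio of 0.62 (adjusted p = 0.0448 by the exact binomial test). Its adjusted p lay between 0.0212 and 0.306 over 10 alternatives, and it passed in 4 of them.

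**Figure D2:**
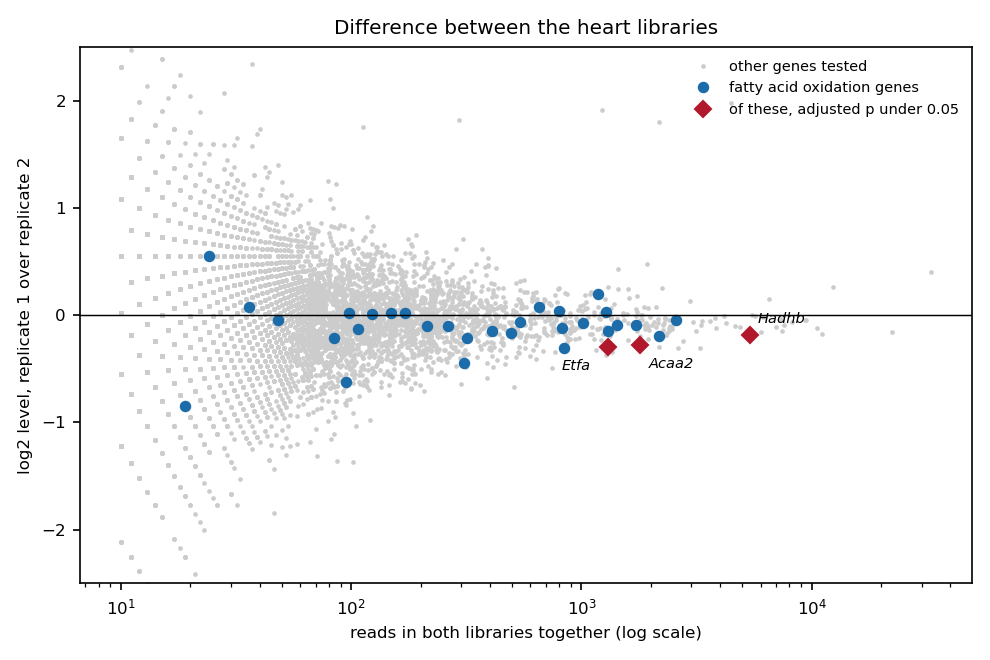
Log2 level of replicate 1 over replicate 2 against the summed reads of a gene on a log axis, with the members in blue and red over all genes tested in grey. Hadhb, Acaa2 and Etfa lie below 0, and 27 other genes beyond 2.5 on either side are not drawn.

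Most reads of the members were counted on an annotated transcript. The share was 86.4% (95% interval 85.7 to 87.0) in replicate 1 and 86.7% (86.1 to 87.2) in replicate 2, against 75.8% and 75.7% over all annotated genes. All 99 of the members' annotated models carried exactly the annotated exons, so the ends of their reads were not measured. Over the 29 members with at least 20 reads in each library, the median share was 88.8%, beside 84.5% over 3328 genes. This gap depended on the read minimum. When the minimum was raised to 50, the medians were 87.9% over 25 members and 87.8% over all genes tested. Among the 29 members the share was highest in Hsd17b10 at 97.8% ± 0.381 and also above 94% in Echs1, Hadh, Cpt2 and Eci1. It was lowest in Acacb at 6.34% ± 1.65, then in Acot13 (52.6% ± 0.573), Eci2 (70.4% ± 2.06) and Acadl (74.1% ± 0.687). No member differed between the libraries by Fisher's exact test with adjustment over all genes, at 10 percentage points or more, and neither did any other gene (0.00%). At an unadjusted p under 0.05 there were 0 members and 115 genes (3.46%).

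**Figure D3:**
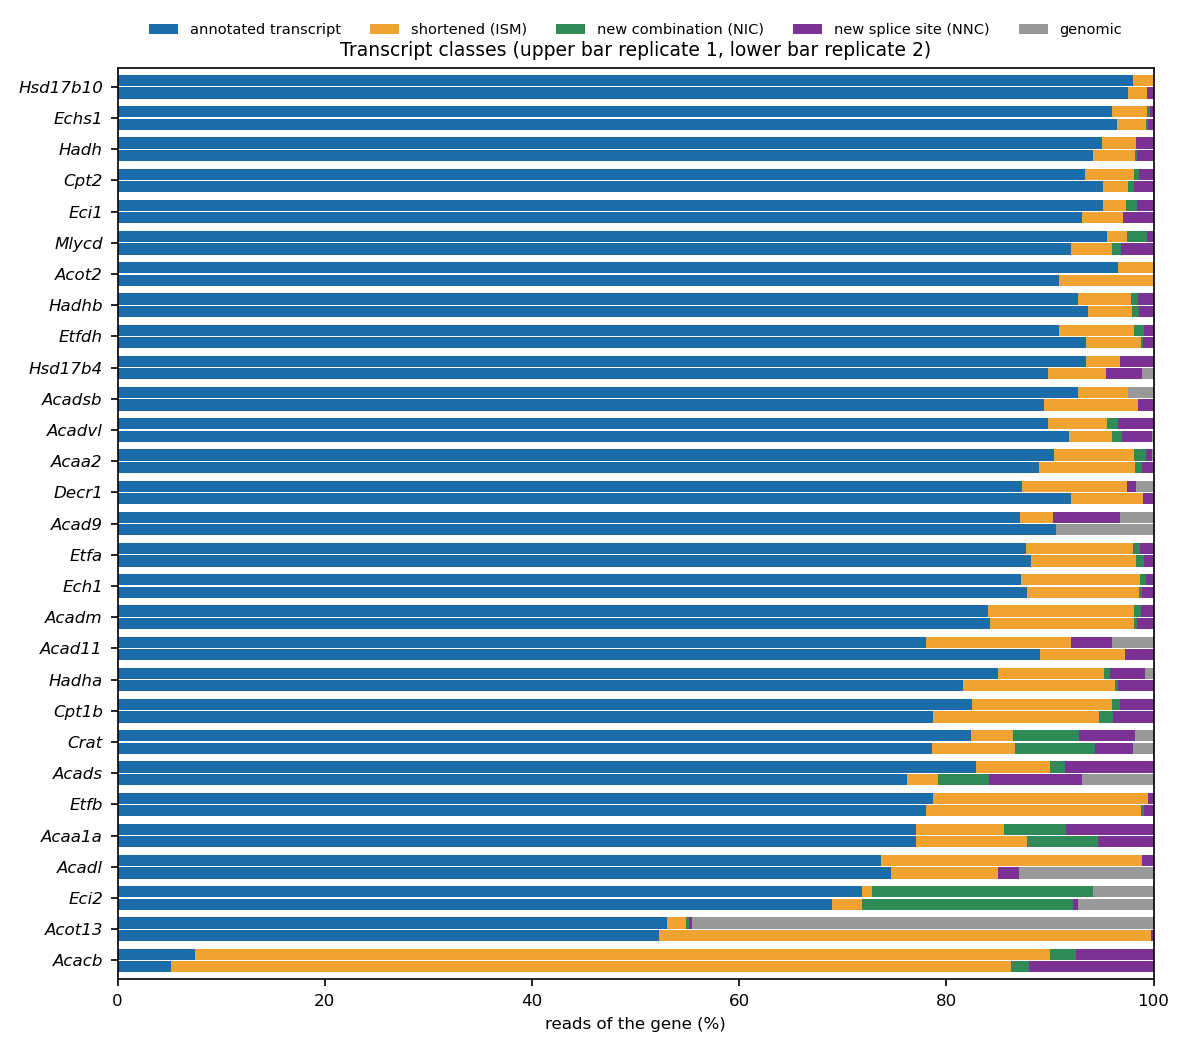
Share of the reads of each gene by transcript class, in percent, with replicate 1 as the upper and replicate 2 as the lower bar, for the 29 members with at least 20 reads in each library. Acacb consists mostly of shortened models, and the last-exon reads of Acot13 and Acadl change class between the libraries.

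Members were also set beside all genes of like transcript length. For leading transcripts of 2000 to 3000 bases the median was 91.9% over 10 members, beside 85.1% over 813 genes. Under 1000 bases it was 78.3% over 3 members, beside 94.8% over 446 genes. Those 3 were Hsd17b10 (962 bases), Etfb (893 bases, 78.3% ± 0.451) and Acot13 (721 bases). Acadsb, with a leading transcript annotated at 6081 bases, had 91.0% ± 2.33 of its reads on annotated transcripts. Its single-exon models, with 1 and 4 reads, ended at 131446209 in both libraries, short of the annotated end at 131448944.

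**Figure D4:**
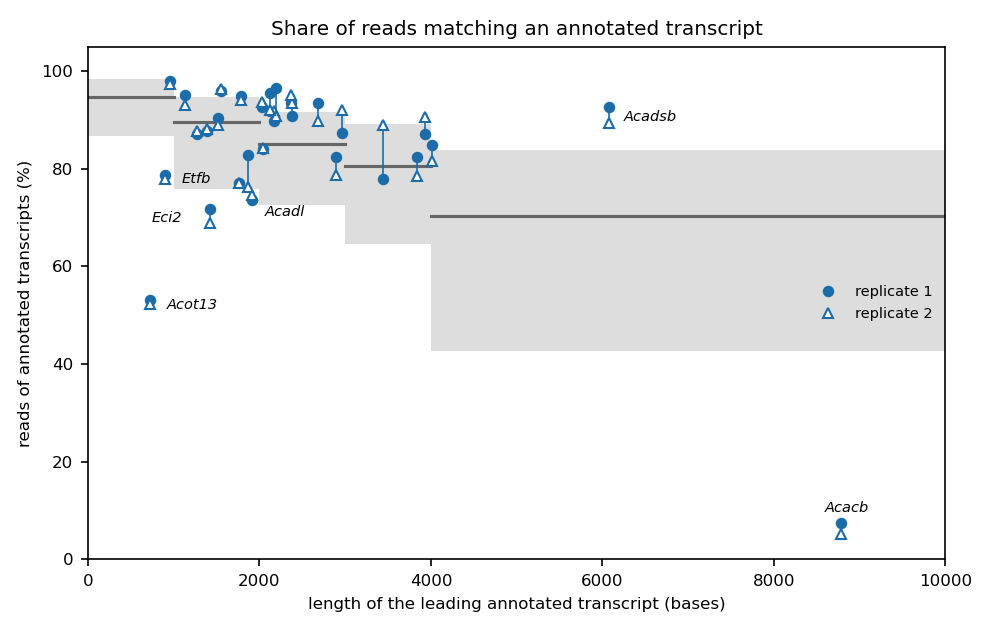
Percent of reads on annotated transcripts against the annotated length of the leading transcript in bases, per member and replicate. The grey line and band give the median and quartiles of all genes tested in that length range. In both libraries Acot13, Etfb, Eci2, Acadl and Acacb lie below the band of their length and Acadsb, Cpt2, Echs1, Hadhb and Mlycd above it, and the last range covers 4000 bases and more.

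Shortened models, classed ISM, hold part of the introns of an annotated transcript and took 8.94% and 9.47% of the members' reads. Those that lack exons at the 5′ side made up 734 and 1166 reads. In 328 of these 353 models the start fell on the edge of an annotated exon, so the starts are not read here to the base. They were 231 distinct intron chains, and the 122 seen in both libraries held 689 and 1056 of the reads.

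The place where such reads began differed by gene, and for the models given next their shares were alike in the libraries. Shares of some other models differed more. A 2-exon model of Acadl took 3.94% and 1.72% of the gene, and a 9-exon model of Hadha 1.41% and 3.09%. In Acadm, a model of the last 2 exons took 94 reads in replicate 1 and 154 in replicate 2, 11.6% and 11.4% of the gene. Exons 2 to 10 began few other reads, so the share of reads with the exon rose from 87.0% and 87.7% at exon 10 to 99.0% and 99.3% at exon 11. In Etfb a model of the last 4 exons took 77 and 110 reads, 14.7% and 14.6%. In Etfa a model that lacked only the first exon took 37 and 69 reads, 7.97% and 8.25%. Acadl had a 9-exon model with 31 and 50 reads, and Ech1 a 5-exon model with 26 and 42. In Hadhb and Acadvl, by contrast, the first exon was held by most reads following the leading transcript, 93.1% and 95.1% in Hadhb and 94.4% and 95.7% in Acadvl. For Hadhb, reads of Hadhb-203 were not counted. Nor was a 16-exon shortened model that began at 30159911, with 24 and 48 reads, 1.19% and 1.43% of the gene.

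**Figure D5:**
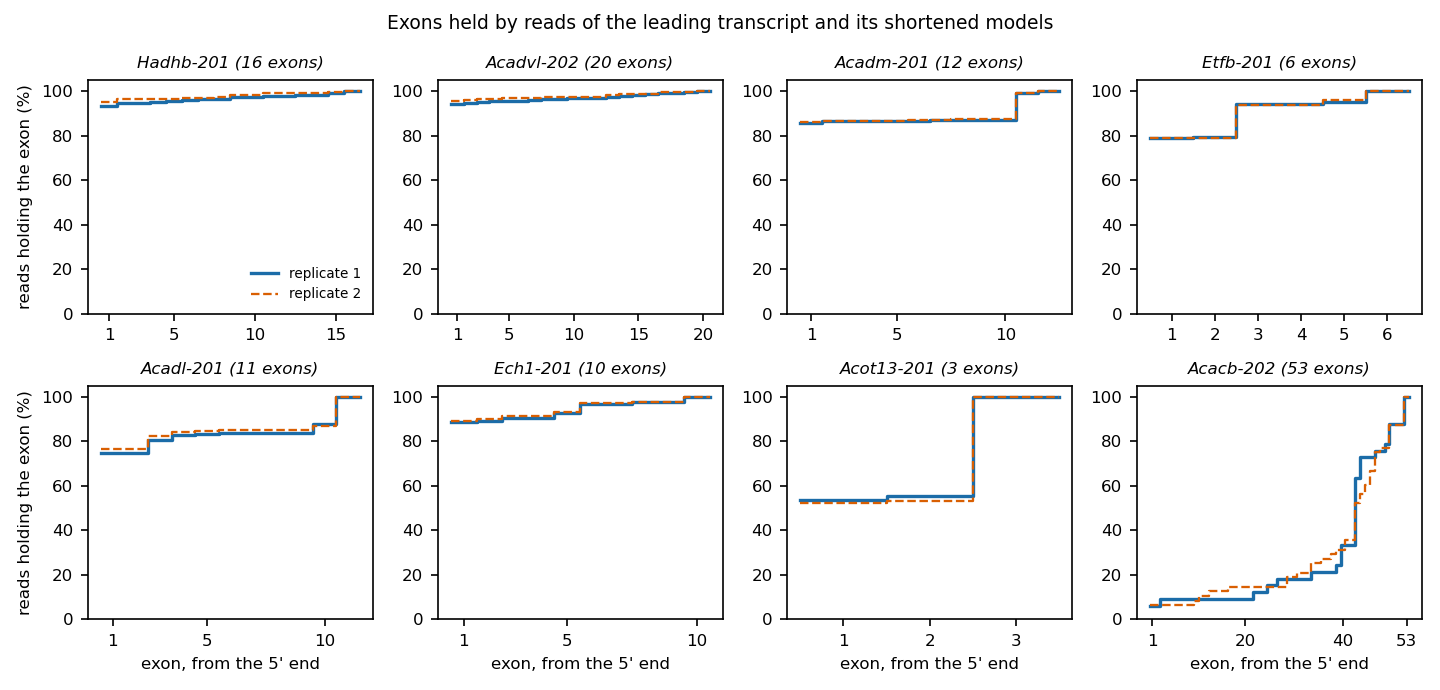
Percent of reads that hold each exon of the leading transcript, counted from the 5′ end, for 8 members with replicate 1 as a solid and replicate 2 as a dashed line. Acadm steps up at exon 11, Etfb at exon 3 and Acot13 at exon 3, at the same exon in both libraries.

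Reads of a single exon lay almost wholly in last exons, 380 of 385 in replicate 1 and 583 of 601 in replicate 2. In Acot13 (ENSMUSG00000006717.7, chr13:24817948-24831540, minus strand), they were 145 of 328 reads and 219 of 469, 44.2% and 46.7% of the gene. The deposited tables class them as a genomic model of 50 bases in replicate 1 and as a shortened model of 244 bases, the whole last exon, in replicate 2. In Acadl, 68 reads were a shortened model in replicate 1, and 113 reads a genomic model in replicate 2, 12.2% and 13.0% of the gene. Model length here describes the model and not each read. With genomic models left out, both genes therefore passed the test of annotated share by at least 10 percentage points, where 0.605% of 3143 genes did. Acot13 stood at 95.6% against 52.2% (adjusted p = 2.8e-27 by Fisher's exact test) and Acadl at 73.7% against 85.8% (adjusted p = 2.66e-05).

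One annotated transcript held nearly all reads counted on annotated transcripts in most members. Of 28 members with at least 20 known reads in each library, 26 had a transcript with at least 90% of them in both libraries, and 19 had reads of a single annotated transcript. The exceptions were Hadhb and Eci2. In 9 members that could be tested, none differed in the share of the leading transcript, where 0.0737% of 1356 genes did by Fisher's exact test with adjustment. Acadm alone of the 9 had an unadjusted p under 0.05, where 3.02% of the genes tested did, with Acadm-201 at 99.3% and 99.9%.

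Spliced models outside the annotation numbered 368 distinct intron chains over the members, with 322 reads in replicate 1 and 497 in replicate 2. Of these, 265 rested on 1 read, 75 were seen in both libraries and 34 of those had at least 5 reads, from 15 genes. They used 320 splice sites that the annotation of the gene lacks, of which 97 lay within 5 bases of an annotated site. Of the 94 such sites read in both libraries, 37 lay that close.

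RefSeq promoter windows, 250 bases before to 50 after a gene's start, were at hand for 27 of the 34 members. They were searched on both strands, and a match is a description of letters, not of binding. The nuclear receptor motif AGGTCA was found in 6 members (Acacb, Acadm, Acadvl, Cpt1a, Echs1 and Ucp3), 22.2%, beside 18.1% of 27025 genes with a window and 14.7% of those with at least 10 reads here. The oestrogen-related receptor letters TCAAGGTCA, which contain that motif, were in 0 members and 0.466% of genes. The direct repeat of that motif with 1 base between was in 0 members and 0.0481% of genes. GC-box letters were in 19 members, 70.4%, beside 38.2% of all genes and 71.6% of the genes read here. CCAAT was in 14 members (51.9%), beside 43.2% of the genes read, and ATGGCGGC in 2 (7.41%), beside 7.01%. CACGTG was in 0 members and 12.6% of the genes read, and TGACGTCA in 0 members and 3.71%.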

How the data were processed

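The 2 heart libraries of long-read RNA were analysed. The deposited tables hold counts of reads per transcript model, with no normalization and no pooling. Per the deposited text files, reads were aligned to mm10 and compared with GENCODE M21. Per the deposited annotation files, TALON supplied models outside the annotation. The sources used here name no aligner, read correction, strand assignment or version. Other columns of the deposited files, model lengths and model coordinates, carry no measurement unit.

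Gene reads are sums over every class, and all 14534 gene identifiers matched GENCODE M21. CPM used the total of annotated nuclear genes. A series of 1 group has no replicated contrast, so libraries were compared by exact binomial and Fisher's exact tests (scipy 1.17.1), adjusted over all genes, with log2 ratios from counts plus 0.5. Calls needed an adjusted p under 0.05 with at least a 2-fold difference, or 10 percentage points for shares, which required at least 20 reads in each library. Counting error alone sets the intervals and floors: copies of 1 molecule cannot be told apart. Scripts were tested on simulated data. Alternatives were other read classes, scalings (edgeR 4.0.16 TMM factors among them), minimums and single libraries. Spliced models were matched between libraries by intron chain. No protein sequences were used here.

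All members are named, and of the outside models the 10 most read with at least 5 reads in both libraries together, plus a Hadhb model tied with the last of them. Of other pathway genes the highest 3 of each list are named, and any that passed, except for 1 gene that is not reported here. Members and lists were chosen with earlier results of these data known. Further genes beside these, such as Acaca, Acaa1b, Ppara and Ppargc1a, were named after their values were seen.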

Additional observations from a re-analysis of the deposited data

Results flagged for a closer look

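Reads outside the annotated strand were seen above the 3-read floor in both libraries at 3 members. Opposite Acot2, an unspliced locus at chr12:83993258-83993873 on the minus strand had 37 reads in replicate 1 and 65 in replicate 2, 94.6 ± 12.2 CPM (n = 2). Acot2 itself had 29 and 66 reads. The locus lies within the last exon of Acot2-201, 83992502-83993873, beyond the coding end at 83993077, and ends at the same base as the gene. Opposite Eci1, models of a single exon within chr17:24428624-24431675 had 6 and 6 reads. Opposite Hadhb, models of a single exon within chr5:30156727-30162681 had 8 and 5 reads, beside 2017 and 3362 reads of Hadhb. The sources used here do not say how reads got their strand, so these levels are uncertain.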

How the results depend on the processing

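The number of members called between the libraries was 0 and stayed 0 under the 9 alternatives that kept the 2-fold minimum. It was 3 with no fold minimum. The spike-in scale raised the genes passing from 56 to 364 and the genes called from 26 to 70. Genes called numbered 39 with genomic models left out and 15 with known transcripts alone. Etfa did not pass in 3 of 10 alternatives, Acaa2 in 1 and Pdk4 in 6, and the cause was not tested, while Hadhb passed under all 10. Pdk4 did not pass with genomic models left out (adjusted p = 0.173 by the exact test), with no read minimum (0.0804) or on 4 of the other scales (0.0515 to 0.306). The summed level of the members was 29703 CPM with known transcripts over their own total, and 24823 to 27097 with 1 library left out. The median annotated share of the members was 87.3% to 89.0% with 1 library left out. Raising the read minimum to 50 gave 87.9%, beside 87.8% over all genes tested. Leaving genomic models out gave a median annotated share of 89.7%, beside 88.4%. Members that differed in this share rose from 0 to 2 with genomic models left out, where the genes called rose from 0 to 19 of 3143. The share of Hadhb in its pair with Hadha was 82.1% over known transcripts, beside 80.4% over all. No paired analysis was possible because there is 1 group. With 2 libraries no test for a single outlying sample applies. Depth limits genes under about 20 reads, such as Cpt1a and Ehhadh, whose fold between the libraries had intervals of 0.147 to 1.54 and 0.602 to 3.56.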
